A study of Mus musculus with 36 samples.

Results

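The genes described here write, remove or read N6-methyladenosine (m6A), a methyl mark on RNA. They are 9 of the 26348 genes in the count tables, namely Mettl3, Mettl14 and Wtap of the writer complex, the erasers Fto and Alkbh5, and the readers Ythdc1, Ythdf1, Ythdf2 and Ythdf3. They were matched by gene identifier, and all 9 passed the filter on low counts. The set was chosen by function and selected on levels and fold changes already known from these same counts, so those values are given as a description and nothing is supported with them.

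The m6A mark is placed on messenger RNA in the nucleus by a complex in which METTL3 holds the catalytic site, METTL14 binds the RNA and WTAP holds the complex in nuclear speckles. FTO and ALKBH5 are dioxygenases that remove the mark. YTHDC1 reads it in the nucleus, and the cytoplasmic YTHDF proteins bind marked transcripts, YTHDF2 being best known for recruiting the machinery that degrades them. None of these data measure the mark itself, only the RNA of the genes that handle it.

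Microglia, the resident macrophages of the brain, came from male mice aged 6 months, either APPswe/PSEN1dE9 transgenics (APP below), which carry mutant human amyloid precursor and presenilin transgenes and deposit amyloid, or wild-type (WT) controls. Cells were released mechanically at low temperature and sorted as live nucleated microglia (CD11b-high, CD45-intermediate, positive for DRAQ5 and negative for DAPI) without or with surface CD11c, the product of Itgax. The 6 groups were CD11c-negative cells of WT cortex, WT hippocampus, APP cortex and APP hippocampus, and CD11c-positive cells of APP cortex and APP hippocampus. Each had 4 replicates (1 animal, region and gate each), except CD11c-positive APP hippocampus with 3, whose names 1-2, 2-3 and 4 may mark pools that share animal 2.

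The 36 libraries held 2657 cells after filtering and 65037665 counts, and the 23 replicate sums ran from 1037425 to 4484427 counts. The genotype tag of the labels disagreed with the title in 17 of 36 libraries; the titles were used, and values from the libraries without this conflict are given where they change a call. All 5 libraries of CD11c-positive APP hippocampus carry a wt tag, so no comparison that uses this group could be repeated with matching tags only. A first number in the titles was nested within the group in every comparison except that of the gates in cortex; the labels do not say what it marks, and it cannot be told apart from the group. Of 83 distinct barcodes 82 occurred in more than 1 library, so barcodes did not identify cells across libraries. Itgax averaged 159 ± 50.5 CPM (n = 4) and 76.0 ± 10.4 CPM (n = 3) in the CD11c-positive groups of cortex and hippocampus, and 0 to 8.73 CPM in the CD11c-negative groups. The highest CD11c-negative replicate, replicate 2 of APP hippocampus, held 31.8 CPM of Itgax, and the lowest CD11c-positive replicate 64.2 CPM. All 10 microglial markers had counts in every group. Neuronal markers summed to 295 to 1303 CPM in the cortical replicates and to 0 to 157 CPM in the hippocampal ones, lymphocyte markers to at most 14.4 CPM.

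For Wtap, Alkbh5 and Ythdf2, the 3 genes on which the results below turn, the bases before a RefSeq start (GRCm38.p6) are shown. They lie at chr17:12992547-12992793 (minus strand), chr11:60537433-60537682 (plus strand) and chr4:132212304-132212506 (minus strand), and bases inside annotated UTRs were left off. Those of Wtap and Alkbh5 lie inside the gene spans given below, downstream of the annotated gene starts. No link between these bases and the levels was tested. Capitals mark GGGCGG, the letters of a GC box, and CCAAT, each on either strand.
Wtap: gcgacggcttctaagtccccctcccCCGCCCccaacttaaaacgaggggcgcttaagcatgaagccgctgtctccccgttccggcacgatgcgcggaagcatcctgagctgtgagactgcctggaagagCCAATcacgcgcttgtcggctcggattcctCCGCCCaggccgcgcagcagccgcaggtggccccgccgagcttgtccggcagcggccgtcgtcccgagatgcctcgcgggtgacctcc
Alkbh5: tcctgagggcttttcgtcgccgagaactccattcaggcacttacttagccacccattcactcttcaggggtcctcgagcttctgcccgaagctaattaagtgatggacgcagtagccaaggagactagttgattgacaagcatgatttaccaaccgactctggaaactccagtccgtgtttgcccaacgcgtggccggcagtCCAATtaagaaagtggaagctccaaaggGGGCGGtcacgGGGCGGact
Ythdf2: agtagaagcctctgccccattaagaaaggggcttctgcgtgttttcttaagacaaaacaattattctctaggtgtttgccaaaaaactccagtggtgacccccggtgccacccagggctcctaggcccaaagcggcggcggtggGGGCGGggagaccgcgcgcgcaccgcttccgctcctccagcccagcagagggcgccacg
The Wtap stretch holds 2 GC-box matches and 1 CCAAT match, that of Alkbh5 the same numbers, and that of Ythdf2 1 GC-box match and no CCAAT. Over the full 250 bases, 32.7% of 32851 RefSeq promoters hold GGGCGG and 33.8% hold CCAAT on either strand, so neither match is rare. RefSeq promoter entries were found for 7 of the 9 genes. Wtap has 3 entries, and the one farthest downstream (chr17:12992260-12992509) holds 41 CpG, 3 GC-box matches and no CCAAT. The 250 bases at the Wtap start shown hold 29 CpG, those of Ythdf2 22 and those of Alkbh5 14, against a median of 6.

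The 9 genes fell into a frequent and a sparse part. Levels are given in CPM, counts scaled to library size with factors from the trimmed mean of M-values (TMM). Wtap averaged 1776 CPM over the 23 replicates, rank 65 of 26348 genes, Alkbh5 1212 CPM (rank 106) and Ythdf2 857 CPM (rank 169). Ythdc1 averaged 92.5 CPM. The remaining 5 lay far lower, at 24.6 CPM for Ythdf3, 22.9 CPM for Fto, 13.6 CPM for Ythdf1, 13.1 CPM for Mettl3 and 11.95 CPM for Mettl14. Per kilobase of exon the order was much the same at the top, with 284 CPM for Wtap, 202 CPM for Alkbh5 and 187 CPM for Ythdf2. The next were Ythdc1 at 6.78 CPM, Ythdf3 at 4.59 CPM and Ythdf1 at 4.11 CPM per kilobase, then Mettl3 at 2.59, Fto at 1.76 and Mettl14 at 1.61 CPM per kilobase. Within the writer complex, the adaptor gene Wtap thus had far more counts per kilobase than either gene of the catalytic pair.

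Single cells showed the same split. A count of Wtap was found in 2329 of 2657 cells (87.7%), of Alkbh5 in 2005 (75.5%), of Ythdf2 in 1298 (48.9%) and of Ythdc1 in 324 (12.2%). Fto had a count in 84 cells, Ythdf3 in 76, Mettl3 in 66 (2.48%), Ythdf1 in 58 and Mettl14 in 47 (1.77%). Counts of both Mettl3 and Mettl14 were found in 3 cells, where the product of their shares gives 1.17 cells. In the replicates with any Mettl3 count, 1 cell carried a median of 90.8% of them; this share was 82.2% for Mettl14, 78.4% for Ythdf1, 75.5% for Ythdf3, 54.9% for Fto, 36.8% for Ythdc1, and 5.90% for Wtap. A replicate level of the sparse genes therefore rests on very few cells.

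**Figure D1:**
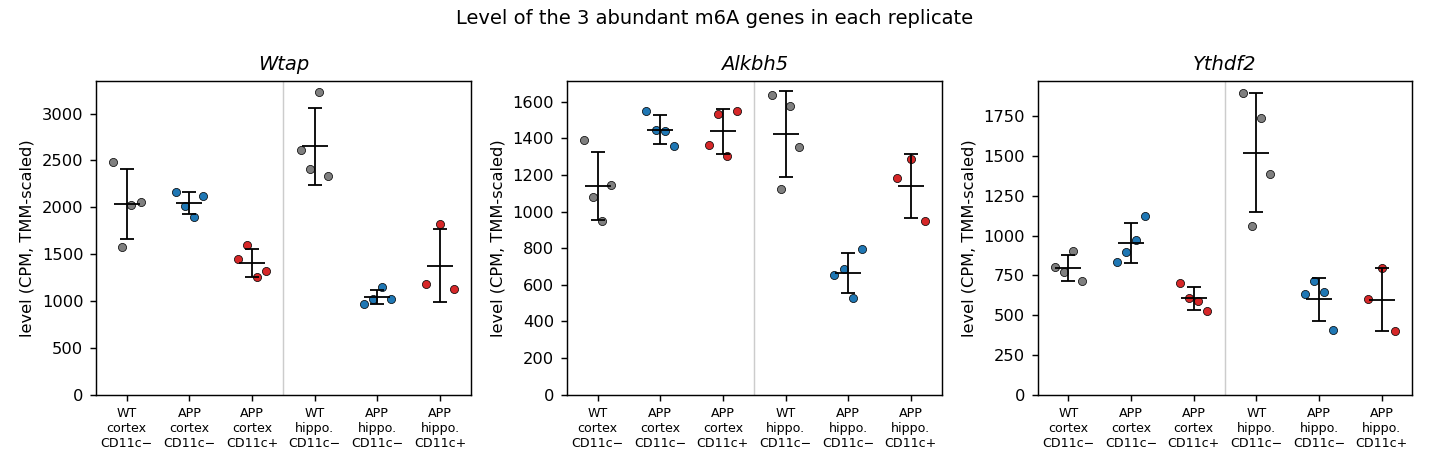
Level (CPM, TMM-scaled, vertical axis) of Wtap, Alkbh5 and Ythdf2 in each replicate (points) of the 6 groups (horizontal axis), with mean and SD as bars; hippo. is hippocampus. In hippocampus the CD11c-negative APP replicates lie below all WT replicates for each gene, at 965 to 1153 against 2335 to 3235 CPM for Wtap.

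Wtap, the adaptor of the writer complex (chr17:12966796-12994169, minus strand, GRCm38), was highest in WT hippocampus at 2649.7 ± 407 CPM (SD, n = 4). Next came CD11c-negative APP cortex at 2049 ± 117 CPM, under all WT hippocampal replicates, and WT cortex at 2036 ± 374 CPM, whose replicates overlapped both. Lower still were the CD11c-positive groups, at 1403 ± 150 CPM in cortex and 1374 ± 389 CPM (n = 3) in hippocampus, which overlapped each other and WT cortex. The lowest was CD11c-negative APP hippocampus at 1042 ± 79.3 CPM, whose highest replicate lay within the CD11c-positive hippocampal range.

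Alkbh5, an eraser (chr11:60536381-60558512, plus strand), had 5 groups between 1139 and 1447 CPM and 1 group apart. CD11c-negative APP cortex stood at 1447 ± 79.6 CPM (SD, n = 4), CD11c-positive APP cortex at 1438 ± 124 CPM, WT hippocampus at 1423 ± 233 CPM, WT cortex at 1141 ± 186 CPM and CD11c-positive APP hippocampus at 1139 ± 175 CPM (n = 3). Neighbours in that order overlapped. CD11c-negative APP hippocampus was at 665 ± 110 CPM, and its highest replicate, 793 CPM, lay under the lowest replicate of any other group, 946 CPM.

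Ythdf2, the reader that marks transcripts for decay (chr4:132184912-132212303, minus strand), was highest in WT hippocampus at 1522 ± 374 CPM (SD, n = 4). It stood at 956 ± 125 CPM in CD11c-negative APP cortex and 797 ± 80.9 CPM in WT cortex, 2 groups that overlapped, and the first also overlapped WT hippocampus. The other 3 groups were alike in mean, at 606 ± 70.8 CPM in CD11c-positive APP cortex, 599 ± 134 CPM in CD11c-negative APP hippocampus and 597 ± 198 CPM (n = 3) in CD11c-positive APP hippocampus.

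The 3 genes had low replicate spread in the fit, with a biological coefficient of variation of 0.264 for Wtap and Alkbh5 and 0.304 for Ythdf2, against 0.726 for Ythdc1 and 1.21 to 1.85 for the other 5. Where a replicate had 2 libraries (13 pairs), the larger level was a median of 1.15 times the smaller for Wtap (at most 1.69), 1.09 times for Alkbh5 (at most 1.62) and 1.22 times for Ythdf2 (at most 1.99). In bulk sums of this kind, fewer cells with the RNA and less RNA per cell cannot be told apart, so both are given below.

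The genotype comparison asks how CD11c-negative microglia of APP mice differ from those of WT mice. In hippocampus, Wtap, Alkbh5 and Ythdf2 were all lower in APP mice. For Wtap the APP replicates held 965, 1026, 1153 and 1024 CPM and the WT replicates 2615, 2414, 3235 and 2335 CPM. For Alkbh5 the APP replicates held 655, 686, 527 and 793 CPM and the WT replicates 1636, 1126, 1578 and 1353 CPM. For Ythdf2 the values were 635, 712, 644 and 404 CPM against 1898, 1061, 1742 and 1386 CPM. For all 3 genes every APP replicate lay below every WT replicate. Here and elsewhere, the share of all genes whose replicates did not overlap was not counted, so how common such separation is remains unknown.

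On the log2 scale Wtap was lower by a fold change of -1.35 ± 0.16 (SE; 2.54-fold; adjusted p = 2.2e-05, edgeR quasi-likelihood test, Benjamini-Hochberg adjustment across the whole table). Ythdf2 differed by -1.35 ± 0.22 (edgeR adjusted p = 0.000567) and Alkbh5 by -1.10 ± 0.16 (edgeR adjusted p = 0.000158). The other 6 members did not pass: 3 of them had folds above 0 and 3 below, with SE from 0.74 for Ythdc1 to 1.97 for Ythdf1.

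In this comparison 226 of 14892 genes passed the threshold, 1.52%, and 177 of them were lower in APP mice. DESeq2 called 1072 genes with the opposite balance, 678 higher and 394 lower, and it called the same 3 members. That share depends strongly on level. Among the 345 genes that averaged at least 500 CPM, to which the 3 members belong, 144 passed, 41.7%, of which 139 were lower, and the median fold change was -0.75 with 76.5% of the genes below 0. Of those 345 genes 18 had a lower fold change than Wtap, 19 than Ythdf2 and 70 than Alkbh5. The 3 members were thus lower together with many other frequent transcripts. DESeq2 scaling factors (RLE) in place of TMM moved all genes up by a median of 0.11 in this comparison, and the 3 members kept their sign and stayed called.

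Other measures moved with this comparison. Thinned to 5000 counts per cell, WT hippocampal cells had 388 to 468 genes per cell in the 4 replicates and APP CD11c-negative hippocampal cells 584 to 652, without overlap. The 345 frequent genes held 47.9% to 50.1% of all counts in WT hippocampus and 37.4% to 42.0% in APP CD11c-negative hippocampus. Microglial markers summed to 11530.1 to 12973 CPM in the WT and 15675 to 18540 CPM in the APP replicates. Mitochondrial counts made up 0.591% to 0.722% of the WT and 1.10% to 1.20% of the APP replicates, also without overlap. Fitted with genes per cell added as a covariate, edgeR gave -1.11 for Wtap (adjusted p = 0.00258), -1.01 for Alkbh5 (adjusted p = 0.0141) and -1.14 for Ythdf2 (adjusted p = 0.0363). With the number of cells with a count, scaled in the same way, in place of counts, the values were -0.71 for Wtap, -0.92 for Alkbh5 and -0.93 for Ythdf2, all called. Here and below that number is scaled to its sum over all genes tested, so it is not the share of cells and can differ from it in direction. The part of the other measures in the result was not tested.

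Most cells of both groups had a Wtap count, 82.3% ± 3.74 of cells in APP CD11c-negative hippocampus and 87.8% ± 7.95 in WT hippocampus (SD, n = 4 each), and these shares overlapped between replicates. The counts in those cells did not overlap: a cell with Wtap held 22.8 to 36.7 counts on average in the APP replicates and 52.6 to 80.0 in the WT replicates. For Ythdf2 the shares were 42.3% ± 10.1 and 53.3% ± 7.90, and the counts per such cell 24.7 to 41.1 against 46.8 to 84.6. For Alkbh5 the shares were 57.1% ± 2.53 and 69.8% ± 12.5, and the counts per such cell 23.7 to 30.3 against 31.8 to 61.5. After thinning to 5000 counts the Alkbh5 shares were 46.1% ± 7.07 and 59.1% ± 6.68. Median counts per cell ran from 14802 to 20343 in the APP and from 15702 to 21801 in the WT replicates.

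**Figure D2:**
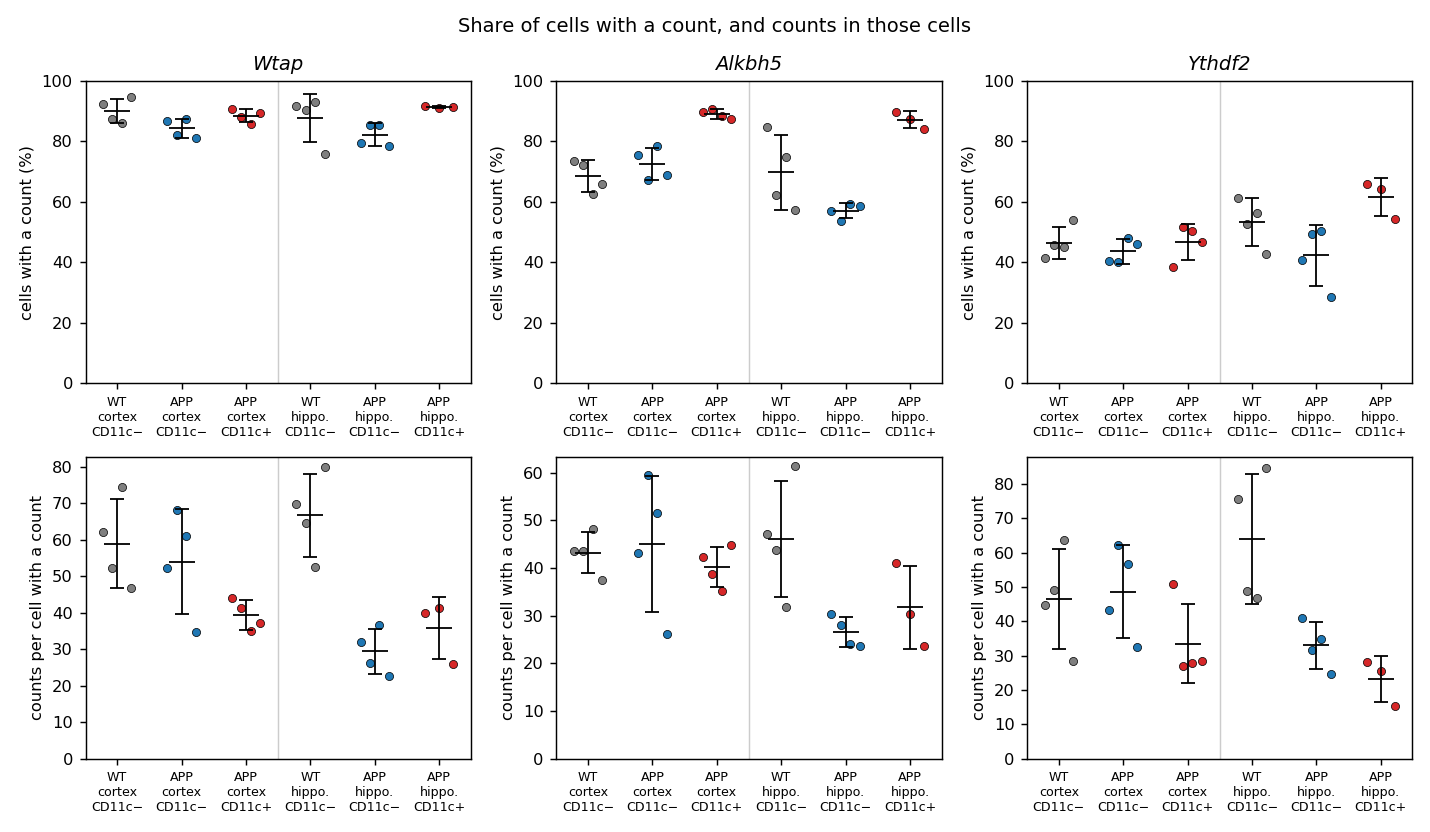
Upper row: cells with a count (percent, vertical axis) of Wtap, Alkbh5 and Ythdf2 in each replicate (points) of the 6 groups (horizontal axis). Lower row: mean counts in the cells that had one; bars are mean and SD. Between WT and CD11c-negative APP hippocampus the shares overlap for each gene, while the counts per such cell do not (Wtap 52.6 to 80.0 against 22.8 to 36.7).

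In cortex the same genotype comparison called 0 of 9 members and 0 of all 14892 genes (0.0% by edgeR, also of the 345 frequent genes, with 1354 genes at an unadjusted p under 0.05; DESeq2 called 245 genes). Wtap averaged 2049 CPM in APP and 2036 CPM in WT cortex. Alkbh5 was at 0.34 ± 0.16 on the log2 scale (edgeR adjusted p = 0.519), and its interval reached from 0.02 to 0.67. Ythdf2 was at 0.26 ± 0.21 (edgeR adjusted p = 0.976; interval -0.19 to 0.71).

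The interaction of genotype and region was called for the same 3 genes, against 1.01% of all genes tested and 29.6% of the 345 frequent genes. It was -1.36 ± 0.22 for Wtap (edgeR adjusted p = 0.00115), -1.44 ± 0.22 for Alkbh5 (edgeR adjusted p = 0.00109) and -1.61 ± 0.30 for Ythdf2 (edgeR adjusted p = 0.00478). With only the libraries whose genotype tag matched the title, these values were -1.30, -1.31 and -2.07, and none passed (edgeR adjusted p = 0.0975, 0.122 and 0.0975), nor did any other gene. Adjusted for genes per cell, Ythdf2 was at -1.37 (edgeR adjusted p = 0.0886). By cells with a count, Wtap was at -0.78 and Ythdf2 at -1.01, both called. By the titles both regions came from the same animals, and the interaction was not fitted with the animal as a block.

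**Figure D3:**
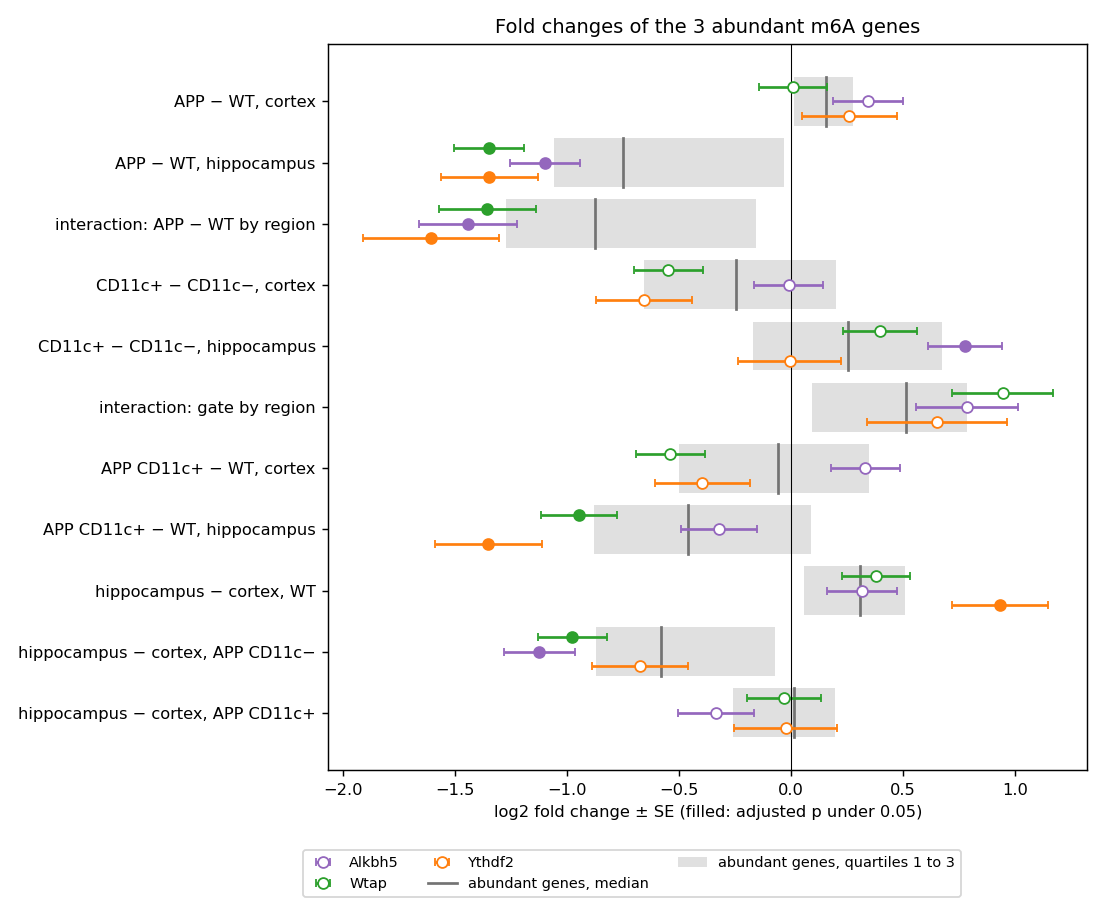
Log2 fold change (horizontal axis) of Wtap, Alkbh5 and Ythdf2 in each comparison (rows), with SE bars; filled points passed an adjusted p of 0.05. Grey bars run from quartile 1 to quartile 3 of the 345 genes at 500 CPM or more, with their median as a line: in the hippocampal genotype comparison that median is -0.75, on the same side as the members.

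The gate comparison sets CD11c-positive against CD11c-negative cells of APP mice. In hippocampus 1 member, Alkbh5, was higher in the CD11c-positive cells, against 0.551% of all genes tested and 10.7% of the 345 frequent genes, of which 29 were higher and 8 lower with a median of 0.26. Its replicates held 1184, 1288 and 946 CPM against 655, 686, 527 and 793 CPM, without overlap, a log2 fold change of 0.78 ± 0.17 (edgeR adjusted p = 0.0265). This call was lost without any 1 of 5 of the 7 replicates: CD11c-negative replicate 1, 2 or 3 (0.75, 0.75 and 0.66, edgeR adjusted p = 0.130, 0.113 and 0.143) and CD11c-positive replicate 1-2 or 2-3 (0.69 and 0.65, edgeR adjusted p = 0.207 and 0.252). It was also lost with RLE scaling (0.56, edgeR adjusted p = 0.139), which moved all genes by a median of -0.18, adjusted for genes per cell (0.89, edgeR adjusted p = 0.119), without the gene filter (0.77, edgeR adjusted p = 0.0894) and by the scaled number of cells with a count (0.04, edgeR adjusted p = 0.882). The unscaled share of cells with Alkbh5 was 84.3% to 89.8% in CD11c-positive and 53.6% to 59.3% in CD11c-negative replicates. After thinning it was 76.9% ± 1.80 (SD, n = 3) and 46.1% ± 7.07 (n = 4). Genes per cell at equal depth were 727 to 994 and 584 to 652. Microglial markers (10 of 10 with a count in both) summed to 8075 to 9660 CPM in the CD11c-positive and 15675 to 18540 CPM in the CD11c-negative replicates. Monocyte markers summed to 29.0 to 112 CPM (3 of 3 with a count) against 0 to 36.4 CPM (1 of 3, Ly6c2 and Vcan at 0), and border macrophage markers to 23.2 to 46.1 CPM (2 of 3, Cd163 at 0) against 0 to 12.1 CPM (1 of 3, Pf4 and Cd163 at 0); astrocyte markers summed to 93.5 to 139 CPM against 175 to 384 CPM (3 of 5 with a count in both). Mitochondrial counts made up 2.01% to 2.66% against 1.10% to 1.20%. The part of these in the result was not tested. Wtap was at 0.40 ± 0.16 (edgeR adjusted p = 0.374), turning to -0.42 by the scaled number of cells with a count (edgeR adjusted p = 0.026). The unscaled share of cells with Wtap went the other way, at 91.4% ± 0.40 (SD, n = 3) in CD11c-positive and 82.3% ± 3.74 (n = 4) in CD11c-negative cells. Ythdf2 averaged 597 CPM in the CD11c-positive and 599 CPM in the CD11c-negative cells.

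In cortex the gate comparison called 0 of 9 members by edgeR, where 2 had an unadjusted p under 0.05 and DESeq2 called 2; edgeR called 1.23% of all genes tested and 29.0% of the 345 frequent genes. Wtap held 1443, 1595, 1256 and 1318 CPM in CD11c-positive and 2161, 2011, 1901 and 2123 CPM in CD11c-negative cells. These values did not overlap, and the log2 fold change was -0.55 ± 0.15 (edgeR adjusted p = 0.0965). With the animal as a replicate block in a fit of these 2 groups it was -0.63 (edgeR adjusted p = 0.0197), and without the block in the same fit -0.62 (edgeR adjusted p = 0.0224). Adjusted for genes per cell, in the fit of all groups, Wtap was at -0.19 and Ythdf2 at -0.34 (edgeR adjusted p = 1 for each). Ythdf2 held 699.9, 608, 588 and 529 CPM against 832, 897, 972 and 1122 CPM, also without overlap (-0.66 ± 0.21, edgeR adjusted p = 0.200). Alkbh5 averaged 1438 and 1447 CPM, and its replicates overlapped. Microglial markers summed to 5360 to 5995 CPM in the CD11c-positive and 8899 to 11127 CPM in the CD11c-negative cells, and oligodendrocyte markers to 328 to 489 CPM (5 of 5 with a count) and 114 to 268 CPM (4 of 5). Mitochondrial counts made up 2.08% to 3.24% and 0.903% to 1.74%. The part of these in the differences was not tested.

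The share of cells with Alkbh5 was nevertheless 89.1% ± 1.51 in CD11c-positive and 72.6% ± 5.30 in CD11c-negative APP cortex (SD, n = 4 each), and 82.4% ± 3.68 and 64.8% ± 4.88 after thinning. Genes per cell at equal depth were 687 to 994 and 469 to 650 in these groups, and no order is read from the share, which goes apart from the CPM; the part of genes per cell in it was not tested. The interaction of gate and region called 0 of 9 members by edgeR, and 0.0% of all genes and of the frequent ones, with 3 members at an unadjusted p under 0.05. DESeq2 called 1 member, Wtap. By edgeR this value was 0.95 ± 0.22 for Wtap (adjusted p = 0.372; 0.19 by cells with a count) and 0.79 ± 0.23 for Alkbh5 (adjusted p = 0.485).

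A ratio of 2 genes within a replicate does not depend on the scaling. The ratio of Wtap to Alkbh5 counts was 1.79 ± 0.28 in WT cortex and 1.88 ± 0.26 in WT hippocampus, 1.42 ± 0.10 in CD11c-negative APP cortex and 1.61 ± 0.40 in CD11c-negative APP hippocampus (SD, n = 4 each). It was 0.98 ± 0.09 (n = 4) and 1.20 ± 0.21 (n = 3) in the CD11c-positive groups of cortex and hippocampus. In cortex the CD11c-positive replicates, at 0.85 to 1.06, lay below all CD11c-negative ones of APP mice, at 1.32 to 1.56, and of WT mice, at 1.46 to 2.14. In hippocampus the CD11c-positive range of 0.99 to 1.42 overlapped that of the CD11c-negative APP replicates, 1.29 to 2.19. The ratio of Alkbh5 to Ythdf2 was 2.40 ± 0.42 and 1.99 ± 0.38 in the CD11c-positive groups of cortex and hippocampus and 0.95 ± 0.09 in WT hippocampus. It was 1.54 ± 0.27 in CD11c-negative APP cortex, 1.45 ± 0.30 in WT cortex and 1.19 ± 0.52 in CD11c-negative APP hippocampus. The cortical CD11c-positive range of 1.95 to 2.93 lay above both CD11c-negative cortical ranges, and the hippocampal one, 1.62 to 2.38, overlapped the CD11c-negative APP range of 0.82 to 1.96. Relative to Alkbh5, both the writer adaptor and the reader were thus lower in CD11c-positive cells of cortex than in their CD11c-negative counterparts. These ratios are a description of levels already used to choose the genes and were not tested.

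**Figure D4:**
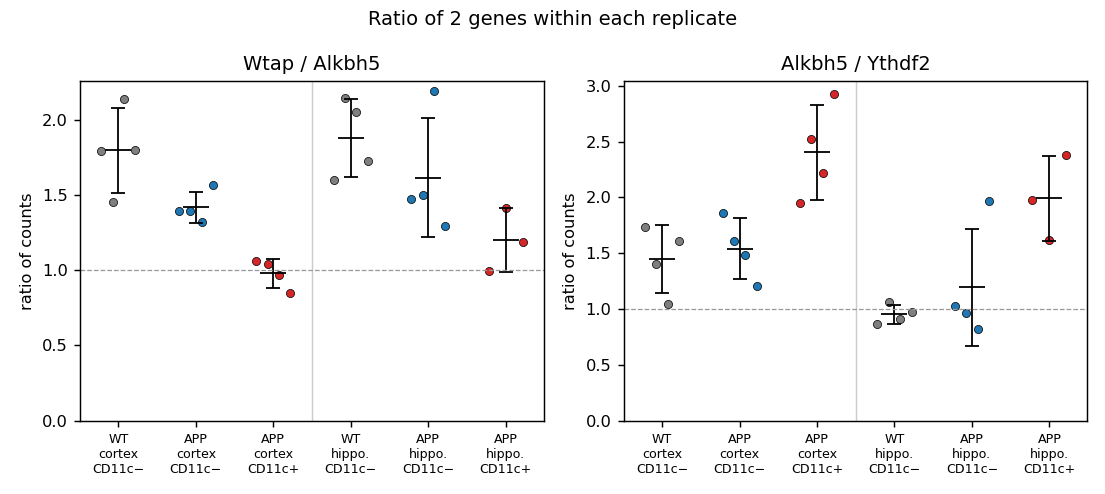
Ratio of counts (vertical axis) of Wtap to Alkbh5 (left) and of Alkbh5 to Ythdf2 (right) in each replicate (points) of the 6 groups (horizontal axis), with mean and SD as bars and a dashed line at 1. The CD11c-positive cortical replicates lie at 0.85 to 1.06 on the left, under all CD11c-negative cortical replicates.

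CD11c-positive APP cells were also set against WT cells. These comparisons share the WT samples with the genotype comparison and the CD11c-positive samples with the gate comparison. In hippocampus 2 members were lower, against 2.07% of all genes tested and 38.6% of the 345 frequent genes, of which 95 were lower and 38 higher with a median of -0.46: Wtap (1177, 1823 and 1123 CPM against 2335 to 3235 CPM in WT; -0.95 ± 0.17, edgeR adjusted p = 0.0019) and Ythdf2 (599, 794 and 398 CPM against 1061 to 1898 CPM; -1.35 ± 0.24, edgeR adjusted p = 0.00171). Neither overlapped. Adjusted for genes per cell these were -0.43 and -0.89 (edgeR adjusted p = 0.927 and 0.709); genes per cell were 727 to 994 in the CD11c-positive and 388 to 468 in the WT replicates. Monocyte and border macrophage markers reached at most 5.80 and 10.96 CPM in WT hippocampus, under the CD11c-positive sums given above, and their part was not tested. Mitochondrial counts made up 2.01% to 2.66% against 0.591% to 0.722%. Alkbh5 was at -0.32 ± 0.17 (edgeR adjusted p = 0.340), at -0.13 adjusted for genes per cell (edgeR adjusted p = 1) and at -0.88 by cells with a count (edgeR adjusted p = 1.57e-06). In cortex 0 of 9 members were called, with 2 at an unadjusted p under 0.05 and 1 called by DESeq2, against 1.07% of all genes and 24.1% of the frequent ones by edgeR. Wtap was there at -0.54 ± 0.15 (edgeR adjusted p = 0.110), which became -0.64 (edgeR adjusted p = 0.0425) without WT cortex replicate 2, and Ythdf2 at -0.39 ± 0.21 (edgeR adjusted p = 0.525). Alkbh5 went the other way, at 0.33, with 1303 to 1550 CPM in CD11c-positive and 947 to 1391 CPM in WT cortex, which overlapped. Adjusted for genes per cell Wtap and Ythdf2 were at -0.23 and -0.12 (edgeR adjusted p = 0.981 and 1). By the scaled number of cells with a count both passed, at -0.54 and -0.49 (edgeR adjusted p = 0.00112 and 0.0138). The unscaled shares of cells were alike, for Wtap 88.6% ± 2.22 in CD11c-positive and 90.1% ± 4.02 in WT cortex (SD, n = 4 each). For Ythdf2 they were 46.8% ± 6.03 and 46.5% ± 5.35.

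The region comparisons set hippocampus against cortex. The 2 regions also differed in markers of other cells: in WT mice neuronal markers summed to 0 to 128 CPM in hippocampus (4 of 7 with a count) and 295 to 1303 CPM in cortex (7 of 7), and in CD11c-negative APP cells to 1.77 to 107 CPM (3 of 7) and 537 to 823 CPM (7 of 7). Oligodendrocyte markers summed to 0 to 50.5 CPM (3 of 5) and 204 to 378 CPM (5 of 5) in WT hippocampus and cortex, and to 0.887 to 86.7 CPM and 114 to 268 CPM (4 of 5 each) in CD11c-negative APP cells. Immediate early genes summed to 94.9 to 429 CPM (8 of 10) and 443 to 744 CPM (10 of 10) in WT hippocampus and cortex. Microglial markers summed to 15675 to 18540 CPM and 8899 to 11127 CPM in CD11c-negative APP hippocampus and cortex. Genes per cell at equal depth were 388 to 468 in WT hippocampus and 516 to 659 in WT cortex. Mitochondrial counts made up 0.591% to 0.722% and 0.943% to 1.98% there. The 345 frequent genes held 47.9% to 50.1% and 39.8% to 45.6% of counts in WT hippocampus and cortex. In CD11c-negative APP cells they held 37.4% to 42.0% and 42.9% to 45.6%. None of these ranges overlapped between regions, and their part in the results below was not tested. Genes per cell and mitochondrial counts overlapped between regions in CD11c-negative APP cells. In WT mice 1 member was higher in hippocampus, Ythdf2, against 1.63% of all genes tested and 8.41% of the 345 frequent genes, of which 28 were higher and 1 lower with a median of 0.31. Its replicates held 1898, 1061, 1742 and 1386 CPM in hippocampus and 801, 769, 905 and 712 CPM in cortex, without overlap, a log2 fold change of 0.93 ± 0.21 (edgeR adjusted p = 0.0265). In a fit of these 2 groups alone it was 0.85 without a block (edgeR adjusted p = 0.0686) and 0.82 with the animal as a replicate block (edgeR adjusted p = 0.340), and without any 1 of 5 replicates (cortex 2 or 4, hippocampus 1, 3 or 4) the call was lost, at 0.77 to 0.98 and edgeR adjusted p = 0.0571 to 0.104. It was 0.77 adjusted for genes per cell and 1.19 with matching genotype tags (edgeR adjusted p = 0.171 and 0.224). The values were 0.38 ± 0.15 for Wtap (edgeR adjusted p = 0.155) and 0.32 ± 0.16 for Alkbh5 (edgeR adjusted p = 0.228), which passed at 0.49 by the scaled number of cells with a count (edgeR adjusted p = 0.0465). Unscaled, Alkbh5 had a count in 69.8% ± 12.5 of cells in WT hippocampus and 68.5% ± 5.23 in WT cortex (SD, n = 4 each).

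In CD11c-negative cells of APP mice the direction was the opposite. Alkbh5 was lower in hippocampus by -1.12 ± 0.16 (edgeR adjusted p = 0.00113), with 655, 686, 527 and 793 CPM against 1550.5, 1443, 1439 and 1356 CPM. Wtap was lower by -0.98 ± 0.15 (edgeR adjusted p = 0.0012), with 965 to 1153 CPM against 1901 to 2161 CPM. Neither overlapped. These were 2 of 9 members, against 2.29% of all genes and 34.5% of the 345 frequent genes, whose median was -0.58. In a fit of these 2 groups alone they were called without a block, at -1.13 and -0.98 (edgeR adjusted p = 0.0134 and 0.0115), and not with the animal as a replicate block, at -1.14 and -0.98 (edgeR adjusted p = 0.0855 for each). By cells with a count Alkbh5 was at -0.67 (edgeR adjusted p = 0.000916), and Wtap at -0.37 did not pass (edgeR adjusted p = 0.0594). Ythdf2 did not overlap either, with 404 to 712 CPM against 832 to 1122 CPM, and was at -0.67 ± 0.21 (edgeR adjusted p = 0.106; DESeq2 called it). In CD11c-positive cells 0 of 9 members were called, with 0 at an unadjusted p under 0.05 and 0 called by DESeq2, against 0.222% of all genes and 0.29% of the frequent ones by edgeR. Wtap averaged 1374 CPM in hippocampus and 1403 CPM in cortex there, and Alkbh5 was at -0.34 ± 0.17 (edgeR adjusted p = 0.469), with no overlap between 946 to 1288 CPM and 1303 to 1550.1 CPM.

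The catalytic pair of the writer complex was too sparse to compare. Mettl3 (chr14:52294841-52305128, minus strand) ranged from 5.79 ± 8.42 CPM in WT cortex to 34.4 ± 32.5 CPM in WT hippocampus (SD, n = 4 each). The WT hippocampal replicates held 60.3, 0, 63.8 and 13.3 CPM, so the mean came from 2 of them. Exons of Tox4 on the opposite strand overlap 933 of the 5076 exon bases of Mettl3, and the sources used here do not say whether counting used the strand. Mettl14 (chr3:123368297-123386108, minus strand) ranged from 6.22 ± 11.8 CPM in CD11c-negative APP hippocampus to 26.5 ± 24.4 CPM in CD11c-positive APP cortex, where the replicates held 0, 12.8, 40.0 and 53.4 CPM. All replicates of a group had counts of Mettl14 only in CD11c-negative APP cortex.

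Fto, the other eraser (chr8:91313525-91668439, plus strand), ranged from 11.2 ± 2.26 CPM (SD, n = 3) in CD11c-positive APP hippocampus to 34.6 ± 30.2 CPM (n = 4) in CD11c-negative APP hippocampus. In CD11c-negative APP cortex its replicates held 28.7, 40.1, 28.9 and 38.7 CPM, all above those of WT cortex at 4.48, 24.4, 13.8 and 20.7 CPM. The log2 fold change of 1.11 ± 1.38 was not called (edgeR adjusted p = 1). Exons of 2 transcripts on the opposite strand overlap 144 and 304 of its 13031 exon bases.

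The nuclear reader Ythdc1 (chr5:86804221-86836659, plus strand) stood between the parts, from 65.5 ± 44.8 CPM in CD11c-positive to 138 ± 64.0 CPM in CD11c-negative APP cortex (SD, n = 4 each). Its replicates there held 89.2, 11.6, 48.0 and 113 CPM against 55.5, 165, 126 and 206 CPM and overlapped (-1.07 ± 0.74, edgeR adjusted p = 0.686). The other groups were at 73.5 ± 59.3 CPM in WT cortex, 76.9 ± 68.5 CPM in WT hippocampus, 105 ± 30.1 CPM in CD11c-negative and 96.8 ± 5.76 CPM (n = 3) in CD11c-positive APP hippocampus. Neighbours in this order overlapped, and the gene shares 631 of 13651 exon bases with the noncoding Gm43055 on its own strand. The cytoplasmic readers Ythdf1 (chr2:180904377-180920949, minus strand) and Ythdf3 (chr3:16183212-16217037, plus strand) had group means of 3.71 to 20.1 CPM and 18.6 to 31.0 CPM. Ythdf1 was at 0 in 7 and Ythdf3 in 3 of the 23 replicates. None of these 6 sparse genes was called by edgeR in any of the 9 comparisons or 2 interactions, where their SE ran from 0.73 to 2.91 on the log2 scale; no unadjusted p was under 0.05 (0 of 6 each time), and DESeq2 called none. At that error, differences of the size seen for Wtap were not detectable.

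**Figure D5:**
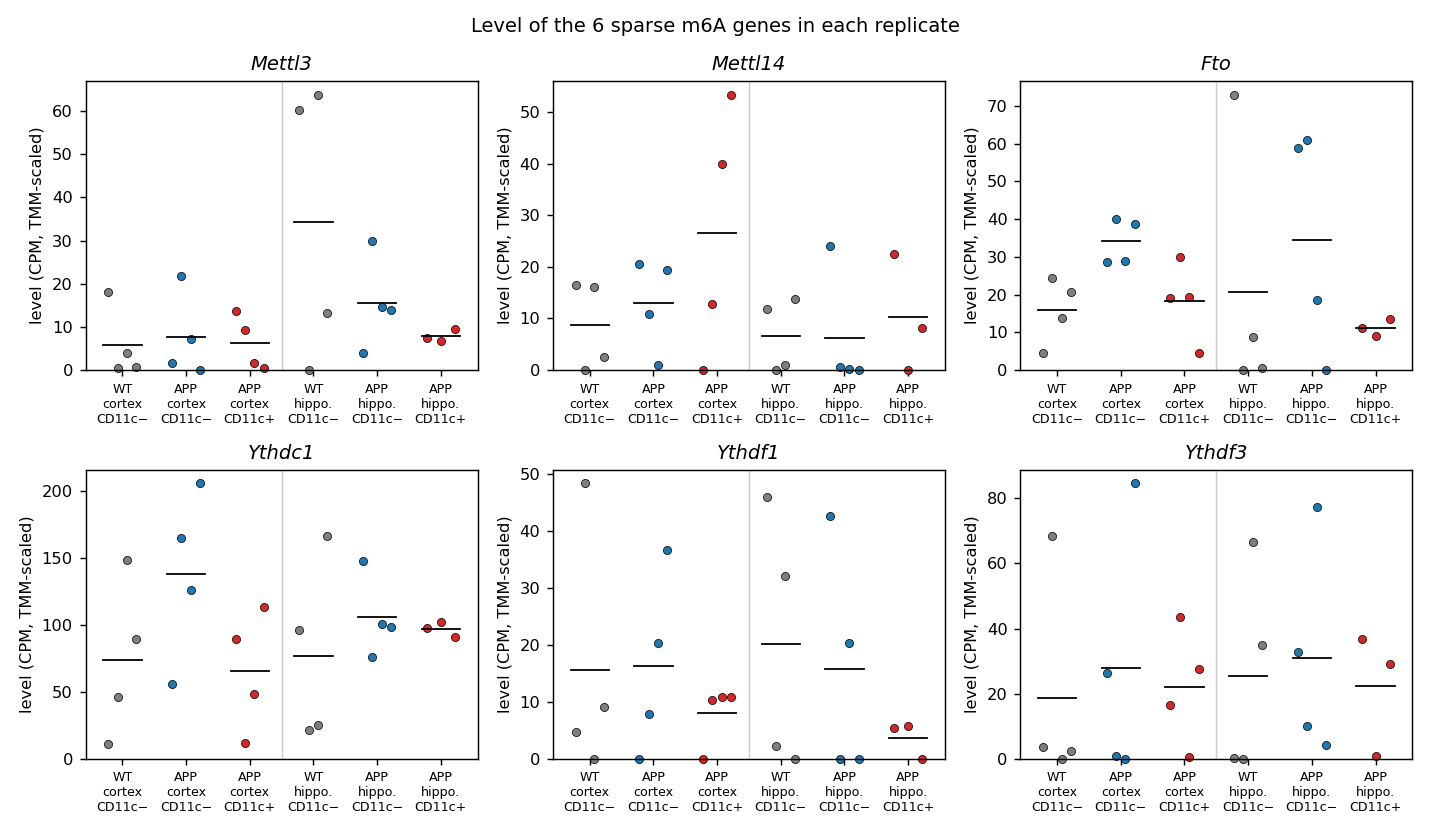
Level (CPM, TMM-scaled, vertical axis; scales differ between panels) of Mettl3, Mettl14, Fto, Ythdc1, Ythdf1 and Ythdf3 in each replicate (points) of the 6 groups (horizontal axis), with the mean as a line. Replicates of 1 group run from 0 to over 60 CPM, as for Mettl3 in WT hippocampus (0 to 63.8 CPM).

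A list of 31 further m6A genes, chosen by function, held other writer subunits and methyltransferases, other readers, and decay, export and methyl-donor genes, and 30 passed the filter on low counts. In the hippocampal genotype comparison 2 of these 30 were lower in APP mice and 0 higher, beside 1.52% of all genes tested and 41.7% of the frequent ones, and the median fold change of the list was -0.09 against 0.01 for all genes. They were Rbm15 and Snd1, the 2 of the list above 500 CPM. Rbm15, a writer subunit that guides the complex to its sites on RNA, held 519.7, 419, 483 and 321 CPM in APP and 1038, 843, 1269 and 1359.6 CPM in WT replicates (-1.37 ± 0.25, edgeR adjusted p = 0.00227). Snd1, a nuclease-domain protein that can bind m6A, held 254, 298, 353 and 232 CPM against 402, 745, 578 and 620.1 CPM (-1.04 ± 0.22, edgeR adjusted p = 0.0108). Neither overlapped. Adjusted for genes per cell they were at -0.98 and -1.05 (edgeR adjusted p = 0.145 and 0.109). With matching genotype tags only, Snd1 was at -1.10 (edgeR adjusted p = 0.0945).

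Rbm15 was also lower in CD11c-positive APP than in WT hippocampal cells (-1.37 ± 0.28, edgeR adjusted p = 0.00668; without CD11c-positive replicate 4 it was -1.14, edgeR adjusted p = 0.0812, and adjusted for genes per cell -0.50), the 1 gene of the list called there. In CD11c-negative APP cells both were lower in hippocampus than in cortex, Rbm15 by -1.21 ± 0.25 (edgeR adjusted p = 0.00764) and Snd1 by -1.04 ± 0.22 (edgeR adjusted p = 0.0101); in a fit of the 2 groups the edgeR adjusted p was 0.0178 and 0.0388 without and 0.107 and 0.139 with the animal as a replicate block, and with matching genotype tags 0.0913 and 0.0668. Their interaction of genotype and region was -1.96 ± 0.35 (edgeR adjusted p = 0.00294) and -1.37 ± 0.31 (edgeR adjusted p = 0.026); neither passed adjusted for genes per cell (edgeR adjusted p = 0.0983 and 0.133) or with matching genotype tags (edgeR adjusted p = 0.166 and 0.228). Snd1 also did not pass without replicate 4 of CD11c-negative APP cortex or replicate 3 or 4 of WT cortex (-1.33, -1.31 and -1.27). In CD11c-positive against WT hippocampus 2.07% of all genes tested and 38.6% of the frequent ones passed. These shares were 2.29% and 34.5% between the regions of CD11c-negative APP cells, and 1.01% and 29.6% in the genotype interaction. The next most frequent genes of the list, the hnRNP genes Hnrnpa2b1 (309 CPM over all replicates) and Hnrnpc (168 CPM), were not called in any comparison. By DESeq2 Srsf3 was called too in the hippocampal genotype comparison and Prrc2a in that of CD11c-positive with WT hippocampus, both named after their values were seen. In the 7 remaining comparisons and interactions no gene of the list was called by edgeR. At an unadjusted p under 0.05 there were 1 to 4 of 30 in each, and DESeq2 called 2 in the cortical gate comparison and 3 in the WT region comparison.

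As a comparison set, 16 enzymes of other RNA modifications (A-to-I editing, cytosine methylation, pseudouridine and others) were taken by function. None was called by edgeR in any comparison or interaction, with 0 to 2 at an unadjusted p under 0.05. All lay below 100 CPM; the highest 4 were Fbl at 83.2 CPM, Pus1 at 50.2 CPM, Dkc1 at 48.8 CPM and Adarb1 at 40.1 CPM. This set therefore has no member at 500 CPM or more. DESeq2 called none of them either.

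The likeness of 2 genes is given as Pearson's r of log2(CPM + 1) over the 23 replicates, which share libraries and depth, among genes at 50 CPM or more. Wtap was most like Zscan26 (0.947), Clasp2 (0.943) and Notch2 (0.939), Alkbh5 most like Agpat1 (0.911), Hyou1 (0.891) and Hnrnpl (0.868), and Ythdf2 most like Skil (0.875), Dctn4 (0.863) and Rbm15 (0.859). Among the members, r was 0.834 between Wtap and Ythdf2, 0.672 between Wtap and Alkbh5 and 0.453 between Alkbh5 and Ythdf2. Values for the sparse members rest on few cells: Mettl3 was most like C1qb (0.8005), Ext2 (0.776) and Pfn1 (0.732), and Fto most like Ptprs (0.814), Senp7 (0.791) and Arhgef2 (0.775). Ythdc1 was most like Tmcc3 (0.704), Rbm12b2 (0.602) and Adora3 (0.529), Ythdf1 most like Ogdh (0.706), Tlr6 (0.649) and 5430431A17Rik (0.643), Ythdf3 most like Cldnd1 (0.702), Slc25a11 (0.685) and Acsl5 (0.579), and Mettl14 most like Cybb (0.581), Psmb2 (0.566) and Atp6v1d (0.560).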

How the data were processed

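Single microglia in 36 libraries were measured by a Smart-seq2-based protocol on an Illumina NextSeq 500, per the labels' protocols. The files the authors deposited hold unnormalised counts for each gene and barcode, made with UMI-tools 0.5.3, HISAT2 2.1.0 (GRCm38, mm10) and featureCounts 1.6.0, per the submitters' processing notes; the sources used here do not say whether reads sharing a molecular identifier were merged. A count of 1 made up 27.0% of entries above 0, and counts of at least 20 made up 35.9%. GENCODE vM21 gave symbols and positions and matched 26348 of 26348 identifiers.

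Barcodes under 200 genes or over 20% mitochondrial counts were dropped, 3 of 2660. Doublets were not called. No library pair was identical (0 of 630; lowest chi-square per degree of freedom 22.4). Groups and replicates came from the titles, and counts were summed over the libraries of each animal, region and gate, giving 23 replicates; p-values measure the spread between these. The main test was that of edgeR 4.0.16 under R 4.3.3 (with limma 3.58.1): TMM, filterByExpr, 1 fit of all 6 groups with 17 residual degrees of freedom, the quasi-likelihood test and Benjamini-Hochberg adjustment at 0.05 over 14892 genes; the script was tested on simulated data. The SE of a fold change is its size over the root of the F statistic, and intervals are at 95%. Shares of cells were also computed after thinning to 5000 counts, which left out 73 cells.

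The members and gene lists were chosen with earlier results of these data known. Text names all 9 members; from the 2 comparison lists, genes past the threshold in any comparison and the 4 highest by level; and the 3 genes most like each member. Titles name the same animal for both gates in cortex and both regions of CD11c-negative cells, so those comparisons are paired by animal; same-animal deviations correlated at -0.06 to 0.08 over 3480 genes. WT and APP animals share only a number. Alternatives were RLE scaling, DESeq2 1.42.0, no gene filter, every barcode, cells with a count in place of counts, genes per cell as a covariate, libraries whose genotype tag matched, the replicate block, and leaving out each replicate. The fit of only 2 groups without the block and the share called among genes at 500 CPM or more were chosen after seeing the data. Folds near 0 whose sign changes between settings are given as levels only.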

Additional observations from a re-analysis of the deposited data

Results flagged for a closer look

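The genotype effect in CD11c-negative cells differed between hippocampus and cortex for 3 members, by the test of the interaction: -1.61 for Ythdf2, -1.44 for Alkbh5 and -1.36 for Wtap on the log2 scale. All 3 were lower in APP than in WT hippocampus and not called in cortex. The interaction was called for 1.01% of all genes tested and 29.6% of the 345 genes at 500 CPM or more. With matching genotype tags 0 members were called, and adjusted for genes per cell Ythdf2 did not pass.

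In 45 member and group pairs examined for 1 replicate far from the others, 4 were flagged. Chance flags about 1 in 20 where values are normally distributed. All 4 flags were in sparse genes, for which that rate need not hold. Mettl14 stood at 23.98 CPM in replicate 1 of CD11c-negative APP hippocampus, where the next was 0.66 CPM. Fto stood at 73.0 CPM in replicate 1 of WT hippocampus, where the next was 8.72 CPM. Ythdf3 stood at 68.4 CPM in replicate 2 of WT cortex, where the next was 3.64 CPM. Ythdf1 was at 0 in replicate 1 of CD11c-positive APP cortex, where the next was 10.4 CPM.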

How the results depend on the processing

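The 3 calls of the hippocampal genotype comparison were kept without each replicate in turn (Wtap -1.44 to -1.28, Alkbh5 -1.24 to -1.03, Ythdf2 -1.52 to -1.22) and under every other setting that could be run except the replicate block in a fit of 2 groups, where Alkbh5 was at -1.03 with an edgeR adjusted p of 0.0547 (without the block in that fit -1.02 and 0.0193). Between APP and WT groups the block joins different animals that share only a number, so it is not a pairing there. The blocked fit, which also has fewer groups, left 0 members called between the regions of CD11c-negative APP cells and of WT cells and 1 (Wtap) in the cortical gate comparison; it left 1 pathway gene in the hippocampal genotype and the cortical gate comparison and 0 between the APP CD11c-negative regions. No paired fit was possible where groups share only number 4, and none was run for the interactions. The same fit without the block called 2 members at the cortical gate, 0 between WT regions and 2 between APP CD11c-negative regions, and 1 pathway gene at the cortical gate, 1 in the hippocampal genotype comparison and 2 between APP CD11c-negative regions. DESeq2 called 2 members at the cortical gate, 1 in CD11c-positive against WT cortex and 1 in the gate interaction, and 2, 2 and 3 pathway genes at the cortical gate, in CD11c-positive against WT hippocampus and between WT regions. RLE scaling called 1 member at the cortical gate, 0 at the hippocampal gate and 1 in CD11c-positive against WT cortex, and 1 pathway gene each at the cortical gate and in the genotype interaction. Without the gene filter there were 0 members at the hippocampal gate and 1 pathway gene each in the hippocampal genotype comparison and its interaction. With genes per cell as a covariate 0 members were called at the hippocampal gate, in CD11c-positive against WT hippocampus and between WT regions, and 0 pathway genes in the hippocampal genotype comparison, in CD11c-positive against WT hippocampus and in the genotype interaction. With matching genotype tags 0 members were called between WT regions and in the genotype interaction, and the pathway list had 1 in the hippocampal genotype comparison, 0 between APP CD11c-negative regions and 0 in the interaction. Cells with a count in place of counts gave 3 members at the cortical gate, 2 and 3 in CD11c-positive against WT cortex and hippocampus, 2 between WT regions and 1 between APP CD11c-negative regions; the 1 called at the hippocampal gate was Wtap in place of Alkbh5 (0.04, edgeR adjusted p = 0.882); for the pathway list 2 at each gate, 2 in CD11c-positive against WT cortex and 5 against WT hippocampus. At the hippocampal gate Wtap reversed by that measure, to -0.42 (edgeR adjusted p = 0.026). Leaving out 1 replicate gave 0 to 1 members at the hippocampal gate, in CD11c-positive against WT cortex and between WT regions, and for pathway genes 0 to 1 in CD11c-positive against WT hippocampus and between WT regions and 1 to 2 in the genotype interaction. Over all genes DESeq2 against edgeR called 616 against 183 at the cortical gate, 532 against 82 at the hippocampal gate, 245 against 0 and 1072 against 226 for genotype in cortex and hippocampus, 510 against 160 and 1201 against 309 for CD11c-positive against WT cells, 1601 against 243 between WT regions, 1167 against 341 and 652 against 33 between APP regions, and 246 against 0 and 798 against 150 for the interactions of gate and of genotype. In the hippocampal genotype comparison the 226 calls became 69 with the block, 99 in the 2-group fit, 75 adjusted for genes per cell, 106 with matching tags and 669 by cells with a count. Elsewhere, adjusting for genes per cell left 30 calls at the cortical gate, 32 at the hippocampal gate, 48 and 2 for CD11c-positive against WT cortex and hippocampus, 17 between WT regions and 31 in the genotype interaction. Matching tags left 38 at the cortical gate, 27 in CD11c-positive against WT cortex, 75 between APP CD11c-negative regions, and 0 between WT regions and in the genotype interaction. The block left 0 between regions and 70 in CD11c-positive against WT cortex, and the 2-group fit 434 at the cortical gate, 271 in CD11c-positive against WT cortex and 0 between WT regions. Cells with a count gave 1331 and 975 at the gates, 1306 and 1535 for CD11c-positive against WT cells, 1 for genotype in cortex, 112 between WT regions, 515 and 151 between APP regions, and 10 and 388 in the interactions. Without the gene filter there were 1 for genotype in cortex, 78 between APP CD11c-positive regions and 2 in the gate interaction. Higher and lower calls were 678 and 394 by DESeq2 against 49 and 177 by edgeR for genotype in hippocampus, and 475 and 323 against 31 and 119 in its interaction. RLE scaling turned the split of higher and lower calls from 66 and 16 to 41 and 37 at the hippocampal gate and from 92 and 68 to 69 and 95 in CD11c-positive against WT cortex. The cause of these changes was not tested. Sparse members rest on few cells. With matching tags no comparison with CD11c-positive APP hippocampus could be run.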
